A study of Homo sapiens with 8 samples.

Results

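The ATRA response of NB4 cells carrying a TFEB hairpin was compared, gene by gene, with that of NB4 cells carrying a scrambled hairpin. The measure is the difference of responses: the log2 ratio of ATRA to vehicle in the TFEB-hairpin line minus the same ratio in the scrambled-hairpin line. A value of 1 means that the fold change under ATRA was 2-fold larger (or the fall smaller) in the TFEB-hairpin line, and a value of -1 the reverse. Of 22627 gene symbols, 10733 were compared, namely those listed above 0 in all 4 groups with a mean of at least 1 FPKM (fragments per kilobase of model, scaled to the mapped fragments of the group).

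NB4 cells come from a human acute promyelocytic leukaemia, express PML-RARA, and differentiate along the granulocyte path when given all-trans retinoic acid (ATRA). All cells had been transduced by lentivirus, with a short hairpin RNA against TFEB (shTFEB) or with a scrambled hairpin (shScr). They received 1 µM ATRA or the ethanol vehicle for 72 h, which gives 4 groups of 2 samples: each hairpin line under vehicle and under ATRA. Where 4 levels of a gene follow each other below, they run from vehicle to ATRA in shScr and then from vehicle to ATRA in shTFEB. The labels name 1 TFEB hairpin line and do not say whether it was a clone or a pool, so the hairpin and the line that carries it cannot be told apart. The deposited tables hold 1 value per model and group, so the spread between samples could not be computed. No test was possible, and every difference below is a size without a replicate check.

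Type I interferons bind a receptor that signals through JAK kinases to STAT factors and IRF9, which together bind interferon-stimulated response elements (ISRE) in the promoters of antiviral genes. Retinoic acid is known to induce part of this programme in promyelocytic cells. TFEB belongs to the MiT/TFE factors, which bind a palindromic E-box (the CLEAR element) at lysosomal and autophagy genes. NF-kB factors bind another short element (kB) and induce inflammatory genes along with their own inhibitors.

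TFEB itself was at 1.2 FPKM under vehicle and 19.4 under ATRA in shScr, and at 1.35 and 8.44 FPKM in shTFEB. The vehicle level was therefore not lower in the line labelled shTFEB, while its ATRA level was lower than in shScr. Its difference of responses was -1.37, and with the deposited bounds taken closest to 0 it was -0.46. TFEB has 5 models on chromosome 6 (hg19 41651716 to 41703997). TFE3, its nearest relative in these cells, had a difference of -0.45, from 7.16, 19.9, 7.88 and 16 FPKM in the 4 groups. MITF and TFEC were not compared: TFEC was listed at 0 in shScr vehicle, and MITF reached at most 0.309 FPKM.

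Relative to shScr vehicle, depth read from the lowest values was 1.05 in the shScr ATRA group, and in shTFEB 1.17 under vehicle and 0.911 under ATRA. In models whose locus spans 920 to 980 bases 1 fragment was worth between 0.0148 and 0.0187 FPKM, so values of this size rest on very few fragments. The 9 promyelocyte markers summed to 4573 FPKM in shScr vehicle and 3058 in shTFEB vehicle, and to 1079 and 947 under ATRA. Most of this was MPO, at 3871 and 2463 FPKM under vehicle and 662 and 594 under ATRA. PRTN3, AZU1, CTSG and PRSS57 were also lower in shTFEB vehicle than in shScr vehicle. MYB (114 and 119 FPKM in shScr and shTFEB vehicle), CEBPE (27.2 and 32.3) and CD33 (23.4 and 25.3) were higher. ELANE, a promyelocyte elastase gene, was at most 0.0456 FPKM in any group. Markers of erythroid cells summed to at most 0.173 FPKM and those of T cells to at most 4.37 FPKM. NK cell markers summed to 170 FPKM in shScr ATRA and 113 in shTFEB ATRA, nearly all of it NKG7, and B cell markers to at most 20.8 FPKM, mostly CD79A, with MS4A1 listed at 0. Fibroblast and epithelial markers reached 34.1 FPKM, mostly KRT18. The part of such cells in the results was not tested.

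Differences were small for most genes: the median was 0.05, and the middle 95% of symbols lay between -0.90 and 0.95. The 2-fold mark was passed upwards by 240 symbols (2.24% of those compared) and downwards by 209 (1.95%). A difference of at least 2 was reached by 60 symbols, and one of -2 or below by 26. Upper-quartile rescaling, which moved the median of all symbols from 0.05 to -0.05, gave 201 above the mark and 271 below it, so that 42.6% of those past the mark were higher, in place of 53.5%. At the edge of the mark, values just inside were 1.0004 and -1.0013, and those just outside 0.9993 and -0.9929. The lowest of a symbol's 4 values was under 0.1 FPKM for 29 of the 240 and 34 of the 209, but for 125 (1.16%) of all compared.

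The difference of responses is by construction the shTFEB to shScr ratio under ATRA minus the same ratio under vehicle, and the higher and lower symbols divided differently between those sides. Of the 240 higher symbols, 147 (61.2%) were at least 2-fold apart between the lines under ATRA alone, and 20 (8.33%) under vehicle alone. Among all symbols compared, 3.26% were higher and 1.53% lower in shTFEB by that much under ATRA, and 1.85% and 0.885% under vehicle. Of the 209 lower ones, 59 (28.2%) were apart under ATRA alone and 65 (31.1%) under vehicle alone. The median shTFEB to shScr log2 ratio of the higher symbols was 1.33 under ATRA and -0.11 under vehicle. For the lower symbols these medians were -0.72 and 0.67, so both sides contributed about equally to them.

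**Figure D1:**
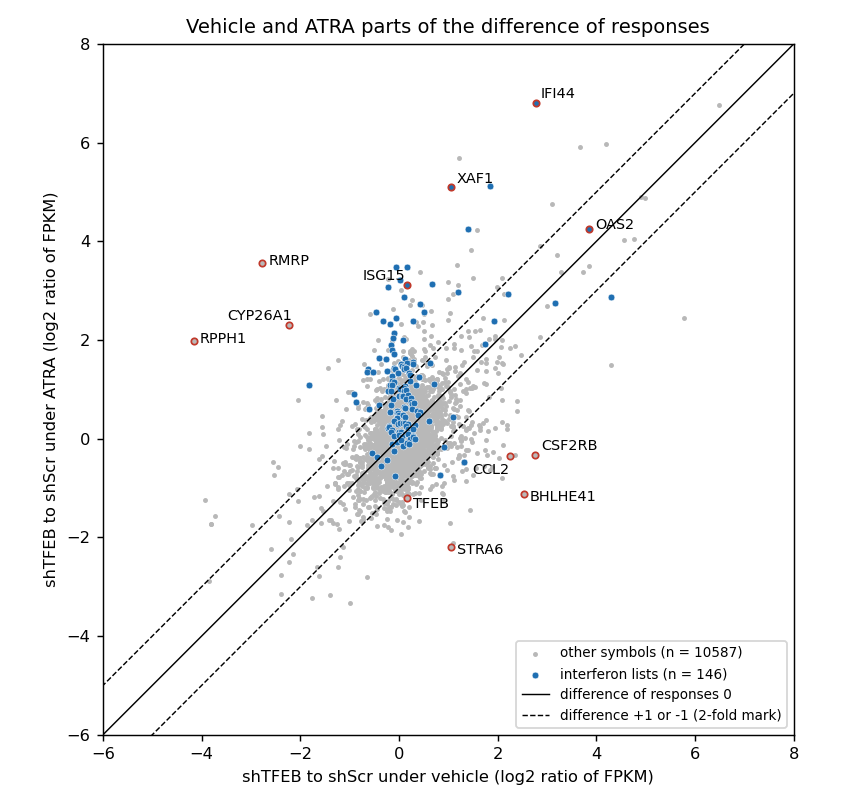
Each point is 1 of the 10733 symbols compared: the x axis is the log2 ratio of shTFEB to shScr under vehicle, and the y axis the same ratio under ATRA. The vertical distance from the solid line is the difference of responses, dashed lines are the 2-fold mark, and interferon-list genes (blue, 146) lie mostly above the solid line near 0 on the x axis.

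The symbols past the mark included induced and repressed genes. Among all symbols compared, 14.1% rose and 17.6% fell by at least 2-fold in shScr, and 12.6% and 12.9% in shTFEB. Both lines rose by at least 2-fold for 96 of the 240, both fell for 55, shTFEB rose and shScr stayed within 2-fold for 34, and shScr fell and shTFEB stayed within 2-fold for 39. A further 2 fell in shScr and rose in shTFEB. Of the 209 lower symbols, 115 rose in both lines, 33 rose in shScr and stayed within 2-fold in shTFEB, and 1 rose in shScr and fell in shTFEB. Their median log2 response was 2.80 in shScr and 1.38 in shTFEB, so most lower values belonged to genes that ATRA induced in both lines, and less in shTFEB.

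Interferon-stimulated genes made up 59 of the 240 higher symbols, more than any other group of lists. The interferon lists hold 170 genes, of which 146 were compared: 59 (40.4%) passed the mark upwards, 4 passed it downwards, and the median difference was 0.74. Outside these lists 181 of 10587 symbols (1.71%) were higher, with a median of 0.05. Of the 12 largest positive differences among genes that could be named, 8 belonged to interferon lists, and of the 50 largest, 25. These lists were chosen with earlier results in view and their counts are a description.

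The ubiquitin-like modifier ISG15, which is conjugated to proteins during antiviral responses, had one of the larger differences. It was at 8.65 FPKM in shScr vehicle and 9.62 in shTFEB vehicle, and at 61 in shScr ATRA and 529 in shTFEB ATRA. The vehicle levels were close, and the ATRA levels far apart, which gave a difference of 2.96. The HERC5 ligase, which attaches ISG15, changed little in shScr (4.66 to 6.96 FPKM) and rose from 3.97 to 58.4 in shTFEB, a difference of 3.30. Its neighbour HERC6 (3.03) and the deconjugating enzyme USP18 (2.77) were likewise higher. Of the 20 genes of ISG15 conjugation and the TRIM and SP100 families compared, 9 were higher and 0 lower, with a median of 0.80. PML, whose gene is one partner of the fusion in NB4 and whose reads cannot be assigned to the normal or the fused copy here, had a difference of 0.65.

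The IFIT genes, whose products bind foreign RNA ends, gave the same picture. IFIT1 was at 0.597 and 0.610 FPKM in the 2 vehicle groups, 18.5 in shScr ATRA and 171 in shTFEB ATRA, a difference of 3.18. It was 2.06 for IFIT3, 1.92 for IFIT5 and 1.78 for IFIT2. IFI44, an interferon-induced gene of uncertain function, reached 54.7 FPKM in shTFEB ATRA against 0.491 in shScr ATRA. Its vehicle levels, 0.00844 and 0.0575 FPKM, were too low to fix the difference of 4.03: it was 5.16 with 1 FPKM added to every value, and its deposited bounds included 0. The membrane restriction factors IFITM1 (2.10) and IFITM3 (1.42) and the mitochondrial protein gene IFI6 (2.29) also passed the mark.

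Of the 14 IFIT, IFI and IFITM genes compared, 9 were higher and 2 lower, with a median of 1.60. The lower ones were IFI30, a lysosomal thiol reductase of antigen processing (-1.80), and IFITM10 (-1.57, but -0.65 with 1 FPKM added), and both had higher vehicle levels in shTFEB. IFI30 was at 0.515, 31.9, 1.29 and 23.0 FPKM in the 4 groups.

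Among antiviral effectors 19 of 35 were higher and 1 lower, with a median of 1.23. RSAD2 (viperin, which makes a chain-terminating nucleotide) rose from 0.231 to 5.20 FPKM in shScr and from 0.258 to 58.2 in shTFEB, a difference of 3.32. CMPK2, the kinase gene beside it, had 2.72. XAF1, a pro-apoptotic interferon target, was at 0.297, 0.882, 0.620 and 30.1 FPKM, a difference of 4.03 that stayed at 2.95 with the deposited bounds closest to 0. SAMD9 (2.07) and SAMD9L (2.17), restriction factors that lie side by side, both passed the mark, as did MX1 (1.83), MX2 (1.28) and BST2 (tetherin, 1.48). Without a pseudocount the exception was EPSTI1 at -1.41: it was at 0.00438 FPKM in shScr vehicle and 0.0856 in shTFEB vehicle, so its lower fold in shTFEB came from the vehicle side. Under ATRA it was 58.3 FPKM in shTFEB and 7.92 in shScr, and its direction turned with a pseudocount, to 2.03 with 0.1 FPKM and 2.62 with 1 FPKM added.

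**Figure D2:**
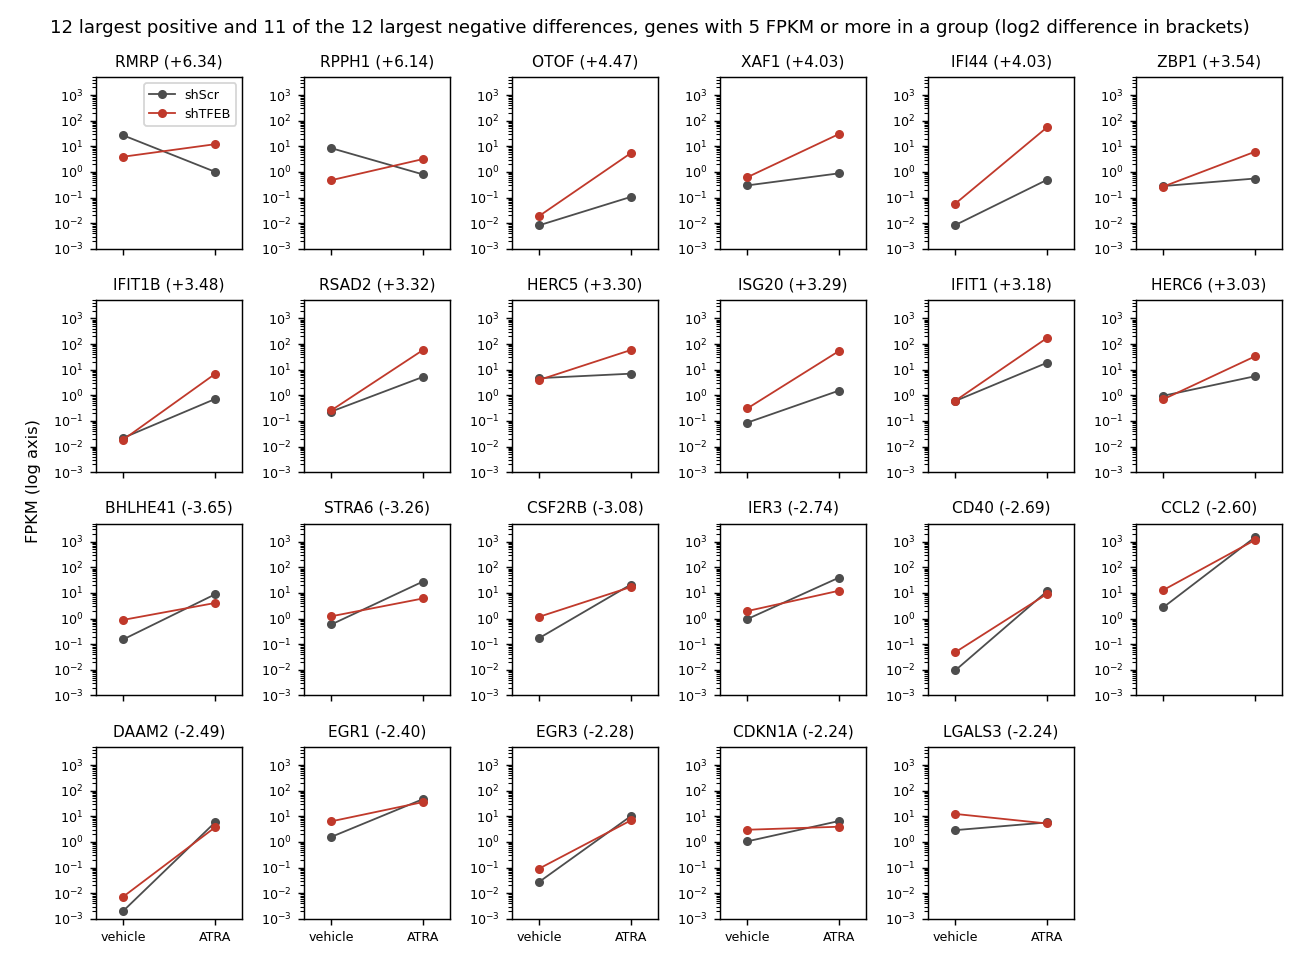
FPKM on a log axis in vehicle and ATRA groups of shScr (grey) and shTFEB (red) for the 12 largest positive (upper rows) and 11 of the 12 largest negative differences (lower rows) among genes that could be named, which have at least 5 FPKM in some group, 1 value per group. HERC5, IFIT1 and RSAD2 start together and part under ATRA, while CSF2RB, CCL2 and CD40 start apart and come together. For CD40 the vehicle levels were only 0.00952 FPKM in shScr and 0.0487 in shTFEB, with lower deposited bounds of 0.

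Sensors of viral nucleic acid were higher in 10 of 18 and lower in 0, with a median of 1.14. RIGI, the cytosolic sensor of 5' triphosphate RNA, was at 6.81 and 5.99 FPKM under vehicle, and at 35.6 in shScr ATRA and 178 in shTFEB ATRA (difference 2.51). IFIH1 (MDA5), the sensor of long double-stranded RNA, had 1.88, and the third member of that family, DHX58, 1.36. ZBP1, which binds Z-form nucleic acid, had 3.54, and the endosomal receptor TLR3 had 2.51. IFI16, a nuclear DNA sensor, differed on both sides: it was 7.01 FPKM in shScr vehicle and 1.97 in shTFEB vehicle, but 26.3 and 56.2 under ATRA, which gave 2.92. The kinase EIF2AK2 (PKR) had 1.36 and its counterpart ADAR, an editor of double-stranded RNA, 0.77.

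The OAS genes, which make the 2'-5' oligoadenylates that activate RNase L, did not follow this pattern without a pseudocount. OAS1 was at 0.246 and 65.6 FPKM in shScr, and at 0.932 and 344 in shTFEB. It was thus higher in shTFEB under both treatments, and its difference was only 0.47. OAS2 (0.39), OAS3 (0.18) and OASL (0.73) behaved likewise, with vehicle levels of at most 0.373 FPKM. Only ISG20 and PNPT1, RNA exonucleases, passed the mark among the 7 genes compared, and the median was 0.47. With 1 FPKM added, 6 of 7 passed and the median was 1.87, so the call for this family turned on how the low vehicle values were treated. PNPT1 went from 30.2 to 15.6 FPKM in shScr and from 27.5 to 54.3 in shTFEB, a difference of 1.93.

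In the signalling layer the median lay close to that of all symbols. Of 19 receptor and JAK-STAT genes 4 (21.1%) were higher and 1 (5.26%) lower, and the median was -0.06. For all symbols these shares were 2.24% and 1.95%. USP18 (2.77), named above, is also in this list. The receptor subunits IFNAR1 (-0.07) and IFNAR2 (-0.06) and the kinases TYK2 (-0.34) and JAK1 (-0.23) stayed within the mark, while STAT2 (1.12) passed it, though not by its highest model alone (0.82). IRF9, the DNA-binding partner of STAT2, had -0.24. Among the feedback inhibitors, SOCS1 (2.03) was higher. SOCS3 (-1.07) was lower, but came to -0.53 with 0.1 FPKM added. Of 9 interferon regulatory factors and their partners 1 was higher, BATF2 (1.62, but 0.81 with 1 FPKM added); IRF7, which amplifies interferon production, had 0.86 and IRF1 0.46. The list's median was 0.09, and -0.01 after upper-quartile rescaling.

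None of the 11 interferon genes listed could be compared, because all were listed at 0 in a group or had a mean under 1 FPKM. IFNB1 was listed at 0.0202 FPKM under vehicle and 0.135 under ATRA in shScr, and at 0 and 0.754 in shTFEB. IFNA1 was at 0.172, 0.223, 0.0748 and 0.814 FPKM, and IFNG was listed at 0 in all 4 groups. Both type I interferon transcripts were thus highest in shTFEB ATRA, at under 1 FPKM. Plasmacytoid dendritic cells are a known source of these cytokines. The 4 markers of those cells summed to 3.83 FPKM in shScr ATRA and 5.14 in shTFEB ATRA, mostly IL3RA, and the most specific of them, CLEC4C, was at 0.503 FPKM or less. Their part in the result was not tested.

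Antiviral PARPs were higher in 5 of 9 and lower in 0, with a median of 1.22. PARP14 (2.01), PARP12 (1.89) and PARP9 (1.42) and the PARP9 partner DTX3L (1.49) passed the mark, and PARP8 (0.29), PARP11 (0.43) and TIPARP (-0.26) did not. Class I antigen presentation, which shows peptides to cytotoxic T cells, had 2 of 18 higher, 0 lower and a median of 0.46. Those 2 were the peptide transporter subunits TAP1 (1.07) and TAP2 (1.04), which came to 0.97 and 0.94, within the mark, after upper-quartile rescaling. HLA-B was at 155 and 135 FPKM under vehicle, and at 937 in shScr ATRA and 1101 in shTFEB ATRA (0.43). Its reads can be shared with the other class I genes. The class II list had 0 of 5 genes past the mark and a median of -0.04.

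Promoter sequences of some of these genes are shown to place the response elements. They are the 120 bases before the RefSeq start (GRCh38.p14), read 5′ to 3′ on the gene's strand, and capitals mark a match on either strand. ISG15 (chr1:1013377-1013496, plus strand), IFIT1 (chr10:89392503-89392622, plus), HERC5 (chr4:88456999-88457118, plus) and OAS3 (chr12:112938354-112938473, plus) have capitals at the ISRE core. In NFKBIA (chr14:35404750-35404869, minus) and TNFAIP3 (chr6:137867139-137867258, plus) they mark the kB element, and in MCOLN1 (chr19:7522504-7522623, plus) the CLEAR core. TNFAIP3 also has a CLEAR core, left in lower case before its kB elements. Only promoters with a match are shown. In the same 120 bases RSAD2, XAF1, RIGI, CMPK2, OAS1, CXCL10, PNPT1 and NT5C3A held no ISRE core. SMPD1, FUCA1, SQSTM1 and TFEB held no CLEAR core there.
ISG15: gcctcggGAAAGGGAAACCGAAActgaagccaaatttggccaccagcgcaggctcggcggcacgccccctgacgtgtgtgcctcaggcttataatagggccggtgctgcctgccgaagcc
IFIT1: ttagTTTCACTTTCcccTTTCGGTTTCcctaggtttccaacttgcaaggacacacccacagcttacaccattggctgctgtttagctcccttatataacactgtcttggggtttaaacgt
HERC5: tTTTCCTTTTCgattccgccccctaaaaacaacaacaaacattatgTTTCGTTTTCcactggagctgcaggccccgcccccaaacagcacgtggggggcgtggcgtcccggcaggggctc
OAS3: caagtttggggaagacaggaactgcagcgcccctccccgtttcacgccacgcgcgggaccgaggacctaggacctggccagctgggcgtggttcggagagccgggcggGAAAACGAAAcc
NFKBIA: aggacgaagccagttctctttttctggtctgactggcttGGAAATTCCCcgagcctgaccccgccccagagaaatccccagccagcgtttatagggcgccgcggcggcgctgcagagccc
TNFAIP3: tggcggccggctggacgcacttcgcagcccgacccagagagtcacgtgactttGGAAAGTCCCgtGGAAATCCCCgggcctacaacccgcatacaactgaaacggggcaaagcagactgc
MCOLN1: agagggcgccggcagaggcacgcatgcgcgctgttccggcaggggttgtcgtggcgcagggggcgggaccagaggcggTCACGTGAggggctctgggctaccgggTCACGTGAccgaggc

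The motifs searched, on both strands of 300-base windows (250 before to 50 after the start), were GAAA, any 2 bases and GAAA for the ISRE core, GGG, any 2 bases and TTTCC for the kB element, and TCACGTGA for the CLEAR core. ISRE and kB matches can share bases. The ISRE core was in 996 of 27305 promoters in the table (3.65%) and in 2.90% of the 8586 compared symbols that had one. Among symbols past the mark upwards it was in 38 of 152 (25%), and among those past it downwards in 6 of 143 (4.20%). Within the interferon lists it was in 27 of 46 genes past the mark (58.7%) and in 17 of 62 others (27.4%). The higher symbols outside the lists held it in 11 of 106 (10.4%). OAS3, with a difference of 0.18, or 1.60 with 1 FPKM added, holds the element too. A match describes these letters and does not show binding.

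Genes outside the interferon lists included several immune regulators, named here after their values were seen except where a list or the 12 largest include them. The lists do not hold every interferon target, so genes outside them can also be induced by interferon. CD274 (PD-L1), a ligand that restrains T cells, was at 0.0443, 1.55, 0.0409 and 9.65 FPKM, a difference of 2.75. The death ligand TNFSF10 (TRAIL) went from 5.73 to 9.27 FPKM in shScr and from 7.27 to 47.9 in shTFEB (2.03). TNFSF13B (BAFF), a B-cell survival factor, went from 2.19 to 14.9 and from 0.928 to 44.8 (2.83). Both ligands thus ended higher under ATRA in shTFEB. IL1RN, the interleukin-1 receptor antagonist, fell 2-fold or more only in shScr (2.58 to 0.255 FPKM, against 0.946 to 0.687 in shTFEB; 2.88). CASP1, the inflammasome caspase, had 2.06 and was the only one of 30 apoptosis genes past the mark. In the cytokine and TNF list as a whole 3 of 17 were higher and 3 lower, and the sign of its median, 0.07, was not stable: it was -0.03 after upper-quartile rescaling and -0.56 over the 9 genes with at least 1 FPKM in each table.

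The metallothionein MT2A, which binds zinc and copper, changed little in shScr (126 to 99.8 FPKM) and rose from 176 to 655 FPKM in shTFEB, a difference of 2.24. Of the other 9 metallothioneins and zinc regulators compared, 0 passed the mark: MT1E had 0.74, MT1X 0.57 and MT1F -0.56. MT1 genes are near-identical copies, and how their shared reads were divided is not known. OTOF, best known from hair-cell synapses, was at 0.106 FPKM in shScr ATRA and 5.45 in shTFEB ATRA. Its vehicle levels were 0.0083 and 0.0192 FPKM, and its difference, 4.47, was 2.53 with 1 FPKM added.

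The largest values among genes that could be named belonged to RMRP and RPPH1, RNA components of the nuclear ribonucleases MRP and P. RMRP (chromosome 9, hg19 35657748 to 35658015) went from 26.8 to 1.01 FPKM in shScr and from 3.93 to 12.1 in shTFEB (6.34). RPPH1 (chromosome 14, hg19 20811230 to 20811570) was at 8.47, 0.800, 0.476 and 3.17 FPKM (6.14). Each RMRP level lay above its own deposited upper bound (9.54, 0.778, 1.80 and 4.95 FPKM in the 4 groups). So did RPPH1 in shScr vehicle (bound 4.78 FPKM) and shTFEB ATRA (2.27 FPKM), so the size of these levels is uncertain. The levels of ISG15, MT2A and CCL2 also lay above their upper bounds in all 4 groups. RMRP and RPPH1 both went down in shScr and up in shTFEB. They are short, structured RNAs without the poly(A) tail of mRNA, so their capture depends on the library protocol. The name prefixes of small nuclear, nucleolar, Cajal-body and other small RNAs do not cover RMRP and RPPH1. Symbols with those prefixes made up 30 of the 240 higher and 16 of the 209 lower ones, out of 133 compared. Their shares past the mark were larger both ways than those of all symbols (2.24% higher and 1.95% lower). Without them and without symbols at several loci, 208 (1.97%) were higher and 191 (1.81%) lower.

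Eosinophil granule genes differed in level between the lines, not all in the same direction, and, for some, in response. PRG2, the eosinophil major basic protein, fell from 1094 to 69.8 FPKM in shScr and from 1548 to 402 in shTFEB, so its fall was smaller in shTFEB by 2.03. SIGLEC8 (1.85) and PRG3 (1.16) were the other genes past the mark upwards among 13 compared, and IL1RL1, the interleukin-33 receptor, was past it downwards (-2.82), but at -0.10 with 1 FPKM added. The granule ribonuclease genes RNASE2 (153, 23.0, 109 and 32.1 FPKM) and RNASE3 (16.2, 4.41, 7.83 and 4.07 FPKM) were lower in shTFEB under vehicle. Under ATRA RNASE2 was higher in shTFEB and RNASE3 about equal, and their differences, 0.96 and 0.93, were within the mark. The median of the list was 0.54. EPX, the eosinophil peroxidase, was at 5.78 and 82.8 FPKM in the vehicle groups and 3.79 and 42.8 under ATRA, so it was far higher in shTFEB throughout and its difference was only -0.35. CLC, which forms Charcot-Leyden crystals, rose from 0.120 to 74.2 and from 1.58 to 771 FPKM, with the same difference of -0.35, which turned to 0.44 with 0.1 FPKM and to 2.15 with 1 FPKM added. The 8 eosinophil and basophil markers summed to 1112 and 1730 FPKM in shScr and shTFEB under vehicle, and to 153 and 1239 under ATRA. Most of this was PRG2 under vehicle, and PRG2 and CLC under ATRA. FCER1A, the mast cell and basophil receptor chain, was listed at 0 in all 4 groups. In these bulk samples more cells of a type and more RNA per cell cannot be told apart.

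MYC, a driver of growth, and most ribosome biogenesis genes fell under ATRA in both lines, with a median log2 response of -1.92 in shScr and -1.33 in shTFEB. MYC was at 279 and 270 FPKM under vehicle, and at 25.6 in shScr ATRA and 54.6 in shTFEB ATRA, a difference of 1.13. GNL3 (nucleostemin), a nucleolar GTPase, was at 120 and 119 FPKM under vehicle and 20.9 and 43.0 under ATRA (1.06). These 2 were the only ones of 29 past the mark, but all 29 lay above 0, between 0.27 and 1.13. The list's median was 0.65, against 0.05 for all symbols, and it was 0.55 after upper-quartile rescaling, which brought GNL3 within the mark (0.96). UTP20, NOLC1, GAR1 and POLR1B, which process ribosomal RNA or transcribe it, had 0.87, 0.83, 0.82 and 0.80. The nucleolar proteins NCL (nucleolin, 0.65) and NPM1 (nucleophosmin, 0.27) lay at the middle and the bottom of that range. Cell cycle genes had a median of 0.21, with 0 of 40 higher and 1 lower. That 1 was the cyclin-dependent kinase inhibitor CDKN1A, at 1.05, 6.54, 2.98 and 3.92 FPKM (-2.24).

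**Figure D3:**
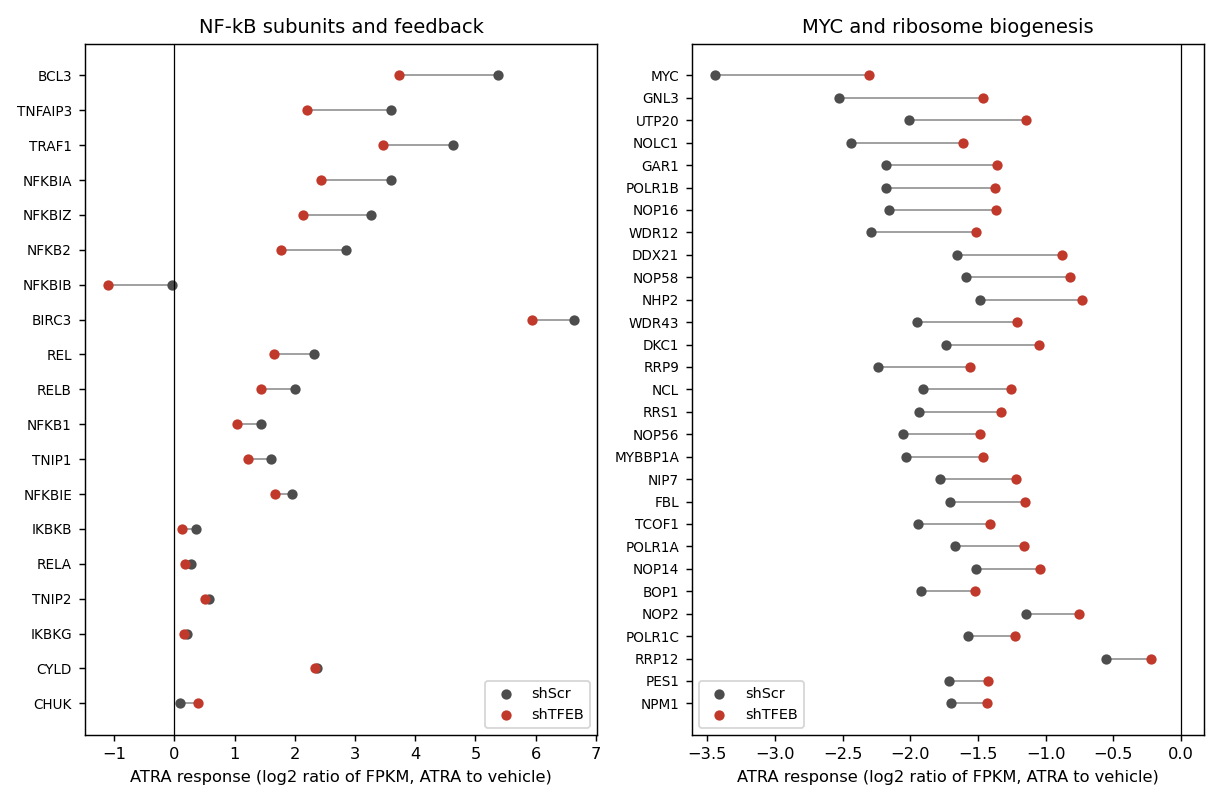
The log2 ATRA response of shScr (grey) and shTFEB (red) is plotted for each compared gene of the NF-kB list (left, 19) and of the MYC and ribosome biogenesis list (right, 29), ordered by the difference. The red point lies nearer to 0 for most NF-kB genes that rose, and to the right of the grey point for all 29 growth genes.

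NF-kB genes lay mostly below 0. Of 19 compared 0 were higher and 7 lower, 18 lay below 0, and the median was -0.57. NFKBIA, the inhibitor that NF-kB induces against itself, rose from 12.7 to 153 FPKM in shScr and from 15.3 to 82.4 in shTFEB, a difference of -1.16. TNFAIP3 (A20), a deubiquitinase in the same feedback, rose from 4.30 to 52.2 and from 6.92 to 31.9 FPKM (-1.40). BCL3 (-1.64), TRAF1 (-1.16), NFKBIZ (-1.12) and NFKB2 (-1.09) also rose in both lines and less in shTFEB. The inhibitor NFKBIB was the exception among the 7: it was at 5.95, 5.77, 11.04 and 5.13 FPKM (-1.06), and fell in shTFEB alone. The kinase subunits IKBKB (-0.24), IKBKG (-0.06) and CHUK (0.31) were within the mark. With 1 FPKM added 4 genes of the list passed it downwards (median -0.51), and with the deposited bounds closest to 0 only 1 did. The kB element was in 6 of 16 promoters of this list (37.5%), in 9 of 143 lower symbols (6.29%), in 4 of 152 higher ones (2.63%) in 1.92% of all promoters and in 2.27% of those of compared symbols.

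In the list of immediate-early genes, which are switched on within minutes of a stimulus, and heat shock genes, 4 of 25 were lower and 0 higher. The 4 were immediate-early genes, while the 10 heat shock genes all lay above 0, between 0.07 (HSPA1A) and 0.93 (HSPH1, a co-chaperone). EGR1 was at 1.57, 46.8, 6.36 and 35.9 FPKM (-2.40), so most of the difference came from its higher vehicle level in shTFEB. EGR2 (-1.86) and EGR3 (-2.28) had the same form at lower levels. With 1 FPKM added both came within the mark, at -0.74 and -0.58. IER3, an early-response survival gene, was at 0.955, 39.6, 1.97 and 12.2 FPKM (-2.74), with both sides contributing. The list's median was -0.22, and 0.07 over genes with a mean of at least 5 FPKM.

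Chemokine genes were lower in 3 of 12 and higher in 1, with a median of -0.40. CCL2, a monocyte attractant, reached 1488 FPKM in shScr ATRA and 1161 in shTFEB ATRA, from 2.75 and 13.0 under vehicle, a difference of -2.60. CCL7, its neighbour, had -1.58, but -0.26 with 1 FPKM added, since its vehicle levels were 0.0210 and 0.0538 FPKM. CCL5, the only chemokine past the mark upwards (1.02), went from 180 to 106 FPKM in shScr and from 121 to 144 in shTFEB. It was within the mark after both rescalings. CXCL10, an interferon-induced attractant of T cells named after its values were seen, was at 0.508 and 0.530 FPKM under vehicle and 176 and 183 under ATRA, with nearly equal responses. CXCL11, of the same family, had 0.76.

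The largest negative difference was that of BHLHE41 (-3.65), a transcriptional repressor tied to the circadian clock. It went from 0.154 to 8.81 FPKM in shScr and from 0.891 to 4.06 in shTFEB, thus higher in shTFEB before ATRA and lower after it. CSF2RB, the shared chain of the receptors for GM-CSF, interleukin-3 and interleukin-5, was at 0.174, 21.4, 1.18 and 17.1 FPKM (-3.08). Its ATRA levels were alike, and its vehicle levels apart. CD40, a receptor of antigen-presenting cells (-2.69), had the same form. With 1 FPKM added it came to -0.36, whereas BHLHE41 (-1.67) and CSF2RB (-1.20) stayed past the mark.

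Neutrophil maturation genes were lower in 5 of 23 and higher in 1, with a median of -0.29. ITGAM (CD11b), the integrin chain used to follow ATRA maturation, was at 2.18, 83.1, 5.63 and 54.6 FPKM (-1.97). Its neighbours ITGAX (-1.58) and ITGAD (-1.15, but -0.97 with 0.1 FPKM added) on chromosome 16, which are not in this list, were also lower. FCAR, the IgA receptor, started at 1.32 and 1.41 FPKM and reached 18.5 in shScr and 5.75 in shTFEB (-1.77, and -0.94 by its highest model alone). It differed under ATRA alone, unlike ITGAM. Lower too in this list were ORM1 (-1.46), MMP9 (-1.06) and the formyl peptide receptor FPR2 (-1.05). ORM1 was at 0.293, 23.5, 0.0862 and 2.51 FPKM, and FPR2 at 0.113, 13.2, 0.0513 and 2.90 FPKM. The deposited bounds of both differences included 0. The higher gene was the formyl peptide receptor FPR1 (2.08), whose vehicle levels of 0.0577 and 0.00984 FPKM were so low that the sign turned to -0.28 with 1 FPKM added. CSF3R, the G-CSF receptor, had -0.08, and the oxidase gene CYBB -0.38. Promyelocyte granule and progenitor genes had 2 of 19 higher, CTSG (1.84) and CEBPA (1.06), and 0 lower; with 1 FPKM added both came within the mark, at 0.52 and 0.91. CEBPA, a granulocyte lineage factor, was at 35.5 and 34.8 FPKM under vehicle and 4.20 and 8.61 under ATRA. Of 10 monocyte and macrophage markers 2 were higher and 3 lower.

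Of 24 genes of the retinoic acid response, 21 stayed within the mark. The median was -0.20, and TGM2 (0.13), ASB2 (-0.02), DHRS3 (-0.34) and CEBPE (-0.46) were among them. STRA6, the membrane importer of retinol, was at 0.588, 27.9, 1.23 and 6.10 FPKM (-3.26). CYP26A1, which degrades retinoic acid, was at 0.0268, 0.871, 0.00572 and 4.33 FPKM, a difference of 4.54 that rests on vehicle levels of a few fragments and came to 1.54 with 1 FPKM added. The remaining gene past the mark was ICAM1, an adhesion molecule also induced by NF-kB, at 2.20, 522, 5.11 and 406 FPKM (-1.57). RARA had -0.02, from 8.17, 11.3, 8.25 and 11.2 FPKM. Those values include reads of the fusion transcript as far as they map to RARA.

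Lysosomal and autophagy genes, the known targets of TFEB, showed small differences, with more genes below 0 than above in each list given here. Of 41 lysosomal hydrolases 0 were higher and 2 lower, with a median of -0.16, and of 33 genes of the lysosomal membrane and V-ATPase 0 passed the mark in either direction (median -0.08). Of 43 autophagy genes 0 were higher and 1 lower (median -0.03), and of 25 MiT/TFE and mTORC1 sensing genes 1 was lower, TFEB itself (median -0.10). The hydrolases were the acid sphingomyelinase SMPD1 (0.850, 9.21, 1.59 and 8.28 FPKM; -1.06) and the fucosidase FUCA1 (3.94, 31.1, 6.69 and 26.3 FPKM; -1.01). Both started higher in shTFEB, and both came within the mark with 0.1 FPKM added. MCOLN1, the lysosomal calcium channel whose promoter holds 2 CLEAR cores, had -0.87, and the autophagy receptor SQSTM1 -0.83. OPTN, another such receptor (-1.05), turned to 0.52 with 1 FPKM added. Below 0 lay 29 of the 41 hydrolases, 18 of the 33 membrane and V-ATPase genes and 24 of the 43 autophagy genes. So did 16 of the 25 MiT/TFE and mTORC1 sensing genes, whereas 56.5% of all symbols compared lay above 0. The CLEAR core was in 9 of 53 promoters of the lysosomal lists (17.0%), in 0 of 152 higher and 1 of 143 lower symbols, in 1.04% of all promoters and in 2.06% of those of compared symbols.

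**Figure D4:**
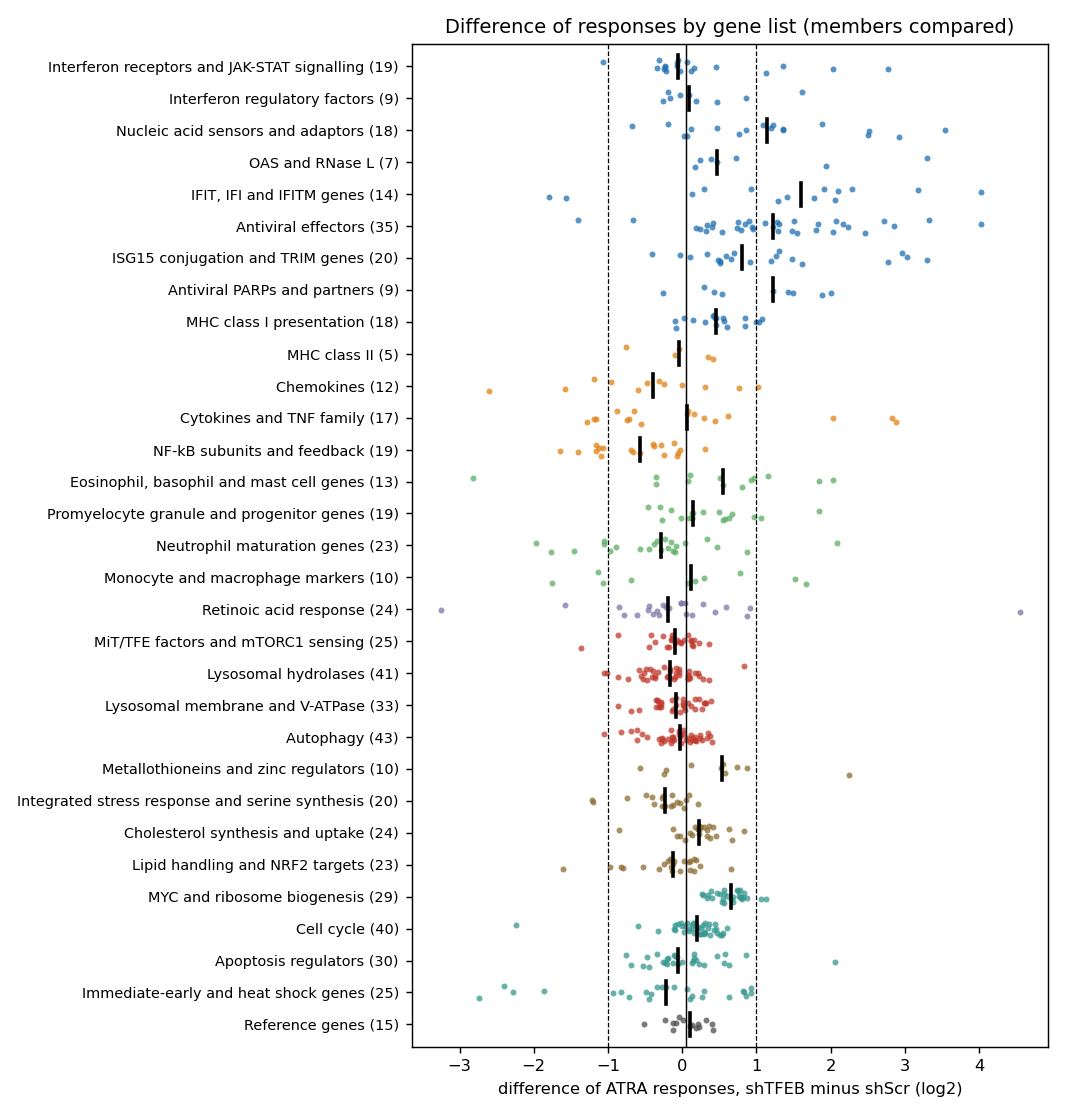
Each point is the difference of responses of 1 compared gene, with lists in rows, the number compared in brackets and a black bar at the list's median; the solid line is the median of all symbols (0.05) and dashed lines are the 2-fold mark. Sensors, IFIT genes, effectors and PARPs have their medians above 1, the 29 growth genes lie wholly to the right of 0, and lysosomal lists centre near 0.

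Metabolic lists also stayed mostly within the mark. Cholesterol synthesis and uptake had 0 of 24 genes past it and a median of 0.22. The integrated stress response and serine synthesis list had 2 of 20 lower, ATF5 (-1.22) and the mTORC1 inhibitor DDIT4 (-1.20), and a median of -0.24. In lipid handling and NRF2 targets 1 of 23 was lower: G0S2, an inhibitor of triglyceride lipase, which rose from 6.23 to 1239 FPKM in shScr and from 12.1 to 794 in shTFEB (-1.60). The 15 reference genes spanned -0.51 (RPL13A) to 0.42 (B2M), with a median of 0.11, and none passed the mark; B2M is itself an interferon target.

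Some genes past the mark lay side by side. Of the 208 higher symbols at a single locus, 46 (22.1%) had another higher symbol within 100 kb in the hg19 coordinates, and of 191 such lower ones 27 (14.1%) had another lower one. Among all 10536 compared symbols at a single locus, 4.20% had a higher symbol, other than themselves, in that window and 5.01% a lower one. They included the IFIT cluster on chromosome 10, HERC5 and HERC6 on chromosome 4, RSAD2 and CMPK2 on chromosome 2, MX1 and MX2 on chromosome 21, and PRG2 and PRG3 on chromosome 11. Among the lower symbols the pairs were led by ITGAM, ITGAX and ITGAD on chromosome 16 and CCL2 with CCL7 on chromosome 17. Neighbours of the same gene family, such as the IFIT genes, arose by duplication and can share reads, and this was not tested. Not all pairs counted are of this kind: RSAD2 and CMPK2, for example, belong to different families.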

How the data were processed

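RNA of 8 samples in 4 groups of 2 was sequenced from TruSeq libraries, per the labels' protocols. Per the submitters' processing notes, the authors aligned reads to hg19 with TopHat and estimated FPKM with Cufflinks and Cuffdiff; versions are not given in the sources used here. The 4 deposited tables hold 1 FPKM with bounds and a status for each of 65986 models, and the way the 2 samples of a group became 1 value is not given. The deposited bounds enclosed the FPKM in only 78.3% to 81.2% of the OK models that reached 1 FPKM. They are therefore used only as an alternative setting, with no confidence level attached. The titles of the shScr ATRA samples also carry the word vehicle; their group came from the description and treatment fields. Wild-type NB4 cells were not analysed here.

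FPKM were summed over the RefSeq models of a symbol; 39841 of 41159 accessions (96.8%) were matched to symbols through a RefSeq table of GRCh38.p14, used for names alone. The difference was computed without a pseudocount or further scaling with pandas 2.3.3 (Python 3.11.15) and figures with matplotlib 3.10.9. The calculation was tested on simulated data made from symbols with at least 1 FPKM in each group. Lower levels, which the comparison includes, were not simulated. Relative depth was read from the most frequent FPKM ratio to shScr vehicle, over models above 0 and under 0.1 FPKM in both groups. The FPKM of 1 fragment was the median of values between 0.012 and 0.022 FPKM in models whose locus spans 920 to 980 bases. It therefore lies in that window by construction. The 2-fold mark is a size, not a test. Named genes are the MiT/TFE factors, the 12 largest differences each way (at least 5 FPKM in 1 table, a single locus, status OK, and no name that starts SNOR, SCARNA, MIR, RNU, RNY, RN7, LOC or LINC or holds -AS), and the 6 largest of each of 32 lists (12 for the 10 interferon lists); others named were chosen after their values were seen, and some genes under this rule are not reported here. Members and lists were chosen with earlier results of these data known. Promoters are RefSeq's (GRCh38.p14), found for 8586 of the 10733 symbols.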

Additional observations from a re-analysis of the deposited data

Results flagged for a closer look

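For 3 genes the response was at least 2-fold in both lines and in opposite directions, which was not tested since each group has 1 value. RMRP fell by 4.72 on the log2 scale in shScr and went up by 1.62 in shTFEB (difference 6.34), and RPPH1 fell by 3.41 and went up by 2.73 (6.14). GJA1, the gap junction gene connexin 43, went up by 1.46 in shScr and fell by 1.88 in shTFEB (-3.34), from 0.0703 to 0.193 FPKM and from 3.86 to 1.05 FPKM.

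A further 6 symbols had at least 5 FPKM in shTFEB ATRA but were outside the comparison because another group was listed at 0. The interferon-induced IFI44L was at 24.8 FPKM, against 0.335 in shScr ATRA and, under vehicle, 0.0328 in shTFEB and 0 in shScr. RTP4, also an interferon target, was at 7.03 FPKM, against 0.577 in shScr ATRA. CTU2 (5.83 FPKM), NUDT3 (39.1 FPKM), THTPA (6.56 FPKM) and USP30-AS1 (5.58 FPKM) were listed at 0 in all other groups. An exact 0 beside such levels can be a failed estimate.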

How the results depend on the processing

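The counts of 240 higher and 209 lower symbols moved by over 1.5 times with some settings. Higher ones numbered 118 with 5 FPKM added, 152 with a mean of at least 5 FPKM, 131 with at least 1 FPKM in each table, 658 with no minimum mean and 73 with the deposited bounds closest to 0. Lower ones numbered 97 with 1 FPKM added, and 40, 105, 92, 892 and 33 under those settings in turn. A minimum of 0.1 FPKM for the lowest value, chosen after the data were seen, gave 211 and 175. For 256 named genes across all settings, 2980 values kept their side of the mark, 179 came within it (65 of them with the deposited bounds closest to 0), 24 newly passed it and 18 changed sign on or across it, all 18 with a pseudocount. With 1 FPKM added, also with symbols listed at 0 kept, FPR1 came to -0.28, IL1A to 0.11, OPTN to 0.52, CLC to 2.15 and EPSTI1 to 2.62. With 5 FPKM added FPR1 came to -0.15, IL1A to 0.074, OPTN to 0.36, CD86 to 0.12, IL1RL1 to 0.11, CLC to 2.93 and EPSTI1 to 2.27, and with 0.1 FPKM added EPSTI1 came to 2.03. Each of these genes has a vehicle level of 0.188 FPKM or less in shScr, and the cause was not tested. No paired analysis was possible because the tables hold 1 value per model and group, and for the same reason no sample could be left out. Low vehicle levels limit the precision of fold changes of strongly induced genes.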
